A study of Mus musculus with 10 samples.

Results

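Collagens are the main structural proteins of the extracellular matrix, and the *Col* genes each encode 1 chain. The 44 collagen chains described here are the genes whose only annotated symbol is Col, a number, the letter a and a number, out of 22180 genes with a single symbol on the array. By type they were 11 fibrillar chains, 6 basement membrane chains (type IV), 6 type VI chains, 9 fibril-associated chains with interrupted helices (FACIT) and 12 others. A gene measured by more than 1 probe set was represented by the brightest on average across the 10 mice, and the rule used only the symbol and this mean.

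RNA was taken from whole liver of 6 *Vps33b* fl/fl-AlfpCre mice (knockout, 3 males and 3 females) and 4 *Vps33b* fl/fl mice (control, 2 males and 2 females), and each mouse was measured once on an Affymetrix Mouse Gene 2.0 array. In the knockout mice the AlfpCre recombinase removes *Vps33b* from hepatocytes and cholangiocytes, so stellate cells, fibroblasts, endothelial cells and macrophages keep the gene. The controls were Cre-negative littermates that carry the same floxed alleles, and both groups are on a C57BL/6 J background. All mice received chow with 0.5% cholic acid, a primary bile acid, from 10 weeks of age for 2 weeks according to the sample labels, so no value describes liver on a normal diet. The general methods of the study describe a longer feeding period that began earlier. Its account of the arrays gives a range of ages at sacrifice within which the end of the labelled diet falls. The labels were followed here.

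Collagen chains assemble in the endoplasmic reticulum as trimers, are hydroxylated, glycosylated and folded there, and after secretion are cleaved and built into fibrils, sheets or filaments. In liver, hepatic stellate cells and portal fibroblasts are the main sources of fibrillar collagen, and scarring after cholestasis begins around the portal tracts. VPS33B acts in membrane trafficking and, with its partner VIPAS39, has been linked to delivery of the collagen-modifying enzyme LH3, the product of *Plod3*.

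The *Vps33b* probe set read 8.92 to 9.39, with a median of 9.21, in knockout liver and 9.12, 9.15, 9.14 and 9.13 in control liver (log2 expression, log2 fold change 0.08, adjusted p = 0.739). The floxed exons are a small part of the transcript and the position of the probes was not analysed here, so this level does not check the deletion. The paper reports that hepatocytes of these knockout animals lost *Vps33b* expression, by in situ hybridisation and by Western blotting. Array medians over all probe sets lay between 4.72 and 4.79 in knockout and between 4.71 and 4.82 in control mice, and the correlation between any pair of mice over genes lay between 0.984 and 0.995. The limma test of genotype called 690 of the 22180 genes higher and 252 lower.

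The collagen chains that rose in knockout liver were *Col6a3*, *Col1a1*, *Col3a1* and *Col4a1*, a type VI chain, 2 fibrillar chains and a basement membrane chain. Their differences were 2.08-fold, 1.88-fold, 1.63-fold and 1.40-fold. No chain fell. The 4 of 44 chains called higher stand beside 3.11% of all genes called higher by the same test, and the 0 called lower beside 1.14% of all genes. A call means an adjusted p below 0.05 in a limma fit of genotype and sex over all genes with Benjamini-Hochberg adjustment. Without adjustment, 11 chains had p below 0.05 in the direction of the knockout and 0 in the direction of the control, against 9.65% and 7.67% of all genes. The median log2 fold change over the 44 chains was 0.03, against -0.01 over all genes. 26 chains had a positive value, or 59.1%, against 48.1% of genes.

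**Figure D1:**
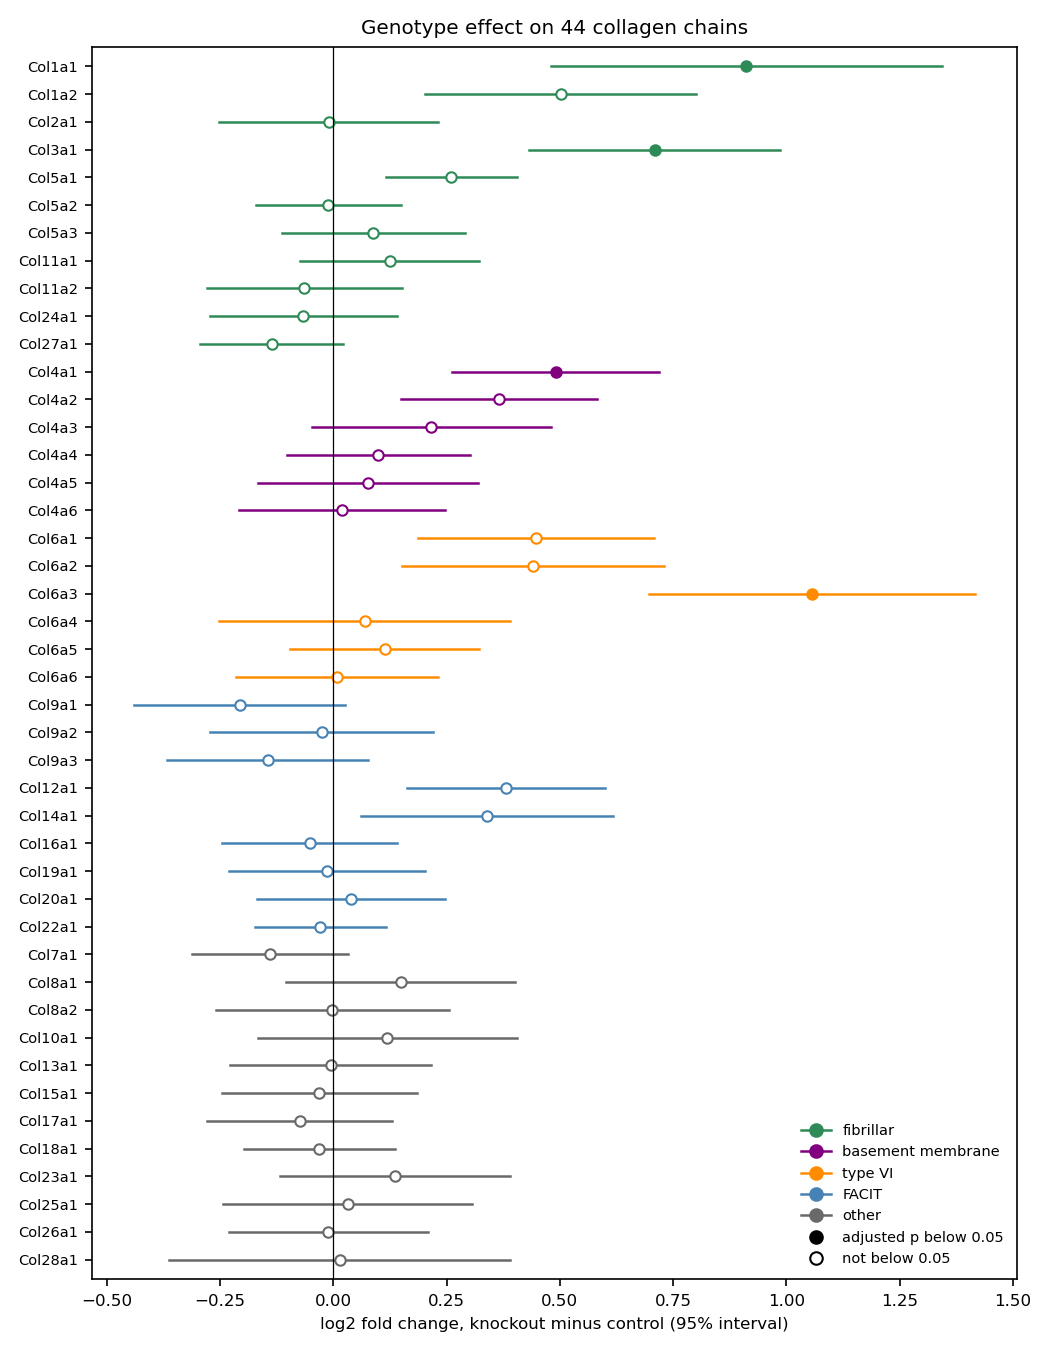
Log2 fold change (knockout minus control) of each of the 44 collagen chains with its 95% interval from limma, ordered by collagen type; filled points have an adjusted p below 0.05. *Col6a3* (1.06), *Col1a1* (0.91), *Col3a1* (0.71) and *Col4a1* (0.49) are filled, and most of the other chains lie within 0.2 of 0.

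*Col6a3* encodes the large chain that completes the type VI collagen trimer, which forms beaded microfilaments around cells and at basement membranes. Its log2 expression ran from 6.14 to 7.11 in knockout liver, with a median of 6.45, and was 5.59, 5.59, 5.63 and 5.31 in control liver. Every knockout mouse lay above every control mouse, with knockout females 4 and 6 the highest at 7.11 and 7.02. The log2 fold change was 1.06 ± 0.16 (SE; 95% interval 0.70 to 1.42, adjusted p = 0.0071).

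*Col1a1* encodes the major chain of type I collagen, the chief fibril of scar tissue. It ran from 7.09 to 7.93 in knockout liver with a median of 7.34, against 7.04, 6.05, 6.77 and 6.26 in control liver. The groups did not overlap, but the gap was small, since control male 1 at 7.04 lay just under the lowest knockout. The log2 fold change was 0.91 ± 0.20 (SE; 95% interval 0.48 to 1.34, adjusted p = 0.0266). The call was lost when control mouse 2, 3 or 4 or knockout mouse 4 was left out, with an adjusted p of up to 0.104.

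*Col3a1* encodes type III collagen, a homotrimer found with type I in portal tracts and in the reticular fibres along the sinusoids. Its log2 expression ran from 7.15 to 8.07 in knockout liver with a median of 7.61, and was 6.79, 6.63, 7.20 and 6.92 in control liver. Each knockout exceeded the controls of its own sex, and across the sexes knockout male 2 (7.15) lay just under control female 3 (7.20). The log2 fold change was 0.71 ± 0.13 (SE; 95% interval 0.43 to 0.99, adjusted p = 0.0116). Leaving out control mouse 2 or 4 ended the call, at an adjusted p of up to 0.0547.

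*Col4a1* encodes a chain of the type IV network that every basement membrane contains. It ran from 6.99 to 7.64 in knockout liver with a median of 7.10, against 6.64, 6.61, 6.84 and 6.65 in control liver. The groups did not overlap, and 5 of the 6 knockout livers lay between 6.99 and 7.17, with knockout female 4 apart at 7.64. The log2 fold change was 0.49 ± 0.10 (SE; 95% interval 0.26 to 0.72, adjusted p = 0.0246). The call did not hold without control mouse 2, 3 or 4 or without knockout mouse 2 (adjusted p of up to 0.0997).

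**Figure D2:**
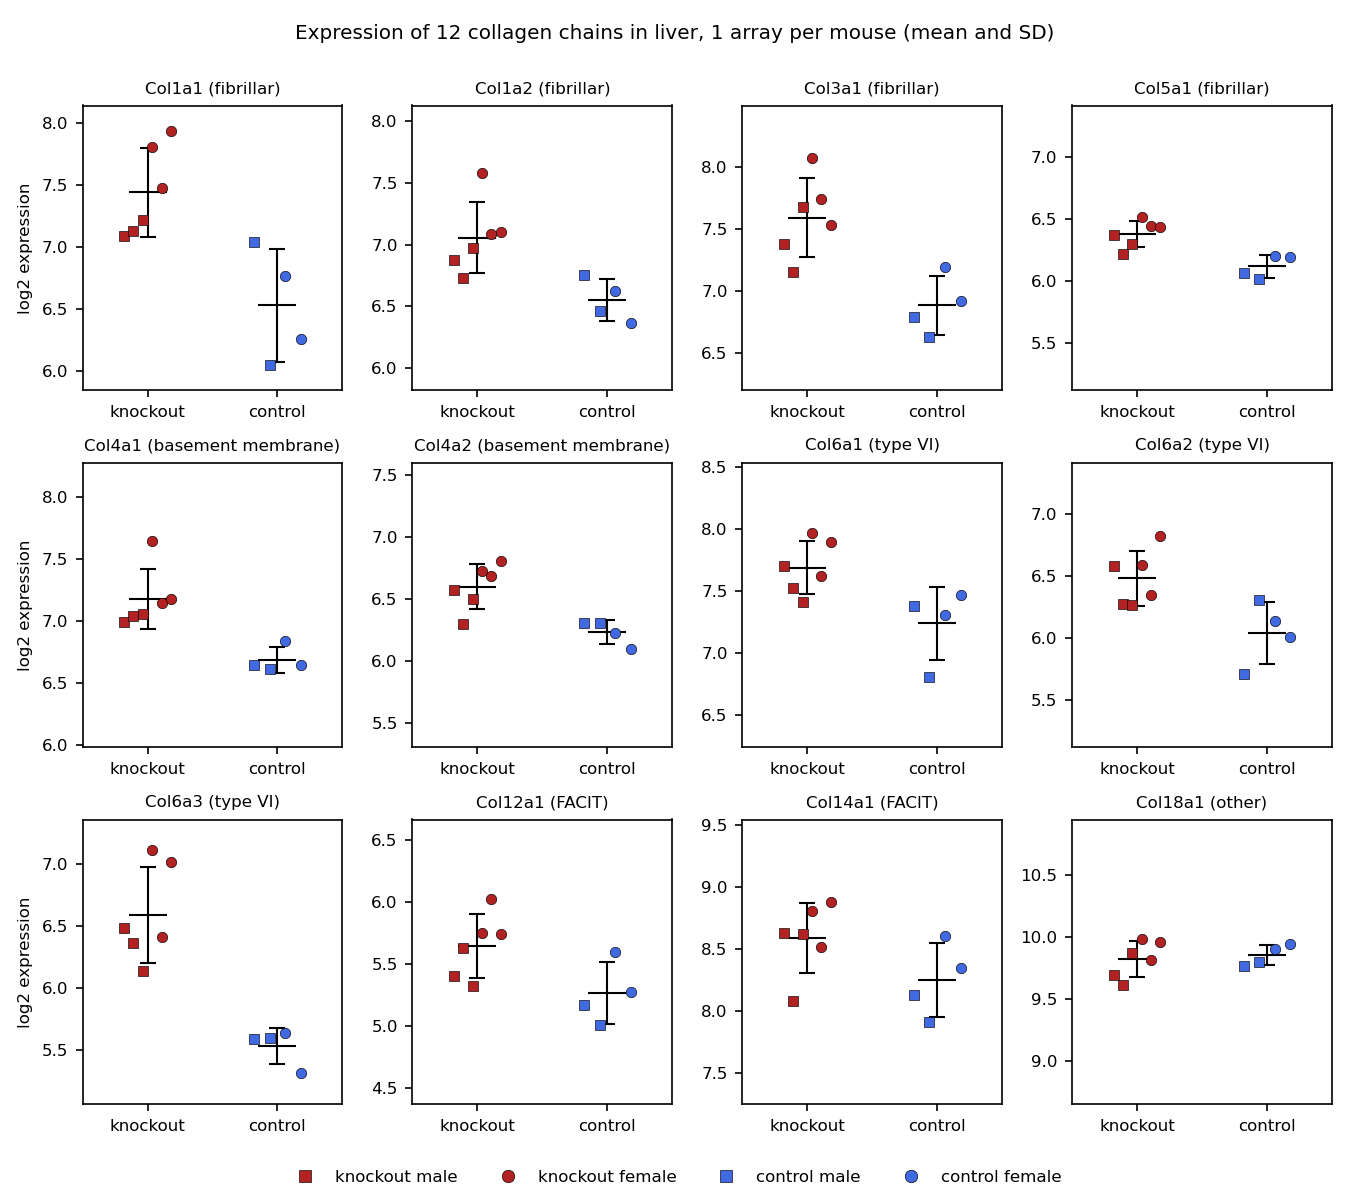
Log2 expression of 12 collagen chains in each mouse, knockout left of control, males as squares and females as circles; horizontal lines are means and bars SD (n = 6 knockout and 4 control). All panels span the same log2 range. The knockout mice lie above every control for *Col1a1*, *Col4a1*, *Col5a1* and *Col6a3*, and *Col18a1* shows no such gap.

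In the counts over mice, every knockout lay above every control for 4 chains, *Col1a1*, *Col4a1*, *Col5a1* and *Col6a3*, against 3.39% of all genes, and no chain had every knockout below every control, against 1.93%. Comparing mice within their own sex, 7 chains had every knockout above the controls, with *Col3a1*, *Col6a1* and *Col12a1* added, against 5.20% of genes, and 0 had every knockout below, against 3.72%. Since the samples were whole liver, more cells of a type and more RNA per cell cannot be told apart, for these chains or any other gene.

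Of the other fibrillar chains, *Col1a2* and *Col5a1* had the next largest differences. *Col1a2*, the partner of *Col1a1* in type I collagen, ran from 6.73 to 7.58 in knockout liver (median 7.03), against 6.76, 6.47, 6.63 and 6.37 in control liver. Only the lowest knockout, male 2 at 6.73, fell below the highest control, male 1 at 6.76. Its log2 fold change of 0.50 (95% interval 0.20 to 0.80) did not pass, at an adjusted p of 0.0651.

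*Col5a1* encodes a chain of type V collagen, which starts type I fibrils and sets their diameter. It ran from 6.22 to 6.51 in knockout liver (median 6.40), against 6.06, 6.02, 6.20 and 6.19 in control liver. The groups did not overlap (the closest were knockout male 2 at 6.22 and control female 3 at 6.20), and the log2 fold change of 0.26 had an adjusted p of 0.0502, just outside the threshold. A second *Col5a1* probe set, with a lower mean of 4.82, differed by -0.21 (adjusted p = 0.349 among all probe sets), in the opposite direction. The second probe sets of *Col1a2* (log2 fold change 0.50) and *Col6a1* (0.40) moved the same way as the kept ones, and neither passed (adjusted p = 0.166 and 0.104).

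*Col5a2*, the usual partner of *Col5a1*, showed a log2 fold change of -0.01 (95% interval -0.17 to 0.15). *Col5a3*, the third type V chain, was at 0.09. The cartilage fibril chains *Col2a1*, *Col11a1* and *Col11a2* were at -0.01, 0.12 and -0.06, and the minor fibrillar chains *Col24a1* and *Col27a1* at -0.07 and -0.14. None of these 7 passed, and their intervals all held 0. The median over the 11 fibrillar chains was 0.09.

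Type IV collagen is built from 3 gene pairs that lie head to head, *Col4a1* with *Col4a2*, *Col4a3* with *Col4a4* and *Col4a5* with *Col4a6*. All 6 chains had a positive log2 fold change, with a median of 0.16, and 1 of 6 passed. *Col4a2*, which joins *Col4a1* in the ubiquitous basement membrane trimer, ran from 6.30 to 6.80 in knockout liver (median 6.63) and was 6.31, 6.30, 6.22 and 6.10 in control liver. Its lowest knockout, male 2 at 6.30, lay level with the control males, while the other knockouts lay at 6.50 or above. The log2 fold change was 0.37 (95% interval 0.15 to 0.58, adjusted p = 0.0632). *Col4a3*, *Col4a4* and *Col4a5*, known for the kidney glomerulus, had log2 fold changes of 0.22, 0.10 and 0.08, and *Col4a6* of 0.02.

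The background level, taken as the 95th percentile of the mean log2 expression of 1088 olfactory receptor genes, which liver is not known to use, was 4.68. 37 of the 44 chains had a mean above it. The 7 at or under it were *Col4a3*, *Col6a5*, *Col8a2*, *Col10a1*, *Col11a1*, *Col19a1* and *Col28a1*, so a difference in them is a difference between readings near background. None of these 7 passed the test.

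All 6 type VI chains also had positive values, with a median of 0.28, of which 1 passed. *Col6a1* and *Col6a2*, the short chains of the common type VI trimer, lie next to each other in the genome. *Col6a1* ran from 7.41 to 7.97 in knockout liver (median 7.66), against 7.37, 6.80, 7.30 and 7.47 in control liver. Only knockout male 3 lay below the highest control, and the log2 fold change was 0.45 (95% interval 0.19 to 0.71, adjusted p = 0.0593).

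*Col6a2* ran from 6.27 to 6.83 in knockout liver (median 6.46), against 5.71, 6.31, 6.14 and 6.01 in control liver. Knockout males 2 and 3 lay under control male 2, and the log2 fold change was 0.44 (95% interval 0.15 to 0.73, adjusted p = 0.0923). The chains that can stand in for *Col6a3*, namely *Col6a4*, *Col6a5* and *Col6a6*, were at 0.07, 0.11 and 0.01 and did not pass.

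FACIT collagens lie on the surface of fibrils and tie them to other matrix. Of the 9, 0 passed, and the median was -0.03. *Col12a1* ran from 5.32 to 6.03 in knockout liver (median 5.69), against 5.17, 5.01, 5.60 and 5.28 in control liver. It was higher in each knockout than in the controls of the same sex, with control female 3 within the knockout range, and its log2 fold change was 0.38 (95% interval 0.16 to 0.60, adjusted p = 0.0557).

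*Col14a1* ran from 8.08 to 8.88 in knockout liver (median 8.62), against 8.13, 7.91, 8.60 and 8.35 in control liver. The groups overlapped widely, with knockout male 2 below 3 of the 4 controls, and the log2 fold change of 0.34 had an adjusted p of 0.182. *Col9a1*, *Col9a2* and *Col9a3*, which coat cartilage fibrils, were at -0.21, -0.03 and -0.14, and the value of *Col9a1* was the lowest of the 44. *Col16a1*, *Col19a1*, *Col20a1* and *Col22a1* lay between -0.05 and 0.04.

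Of the 12 other chains 0 passed, and their log2 fold changes lay between -0.14 and 0.15. *Col18a1*, the chain that hepatocytes produce and the source of endostatin, ran from 9.61 to 9.98 in knockout liver (median 9.84), against 9.77, 9.80, 9.90 and 9.94 in control liver. The groups overlapped throughout, and the interval of the log2 fold change (-0.03) ran from -0.20 to 0.14. Its relative *Col15a1*, also a basement membrane zone collagen, was at -0.03 (interval -0.25 to 0.18). *Col8a1* and *Col8a2*, of the vessel wall, were at 0.15 and 0.00, and *Col7a1*, of skin anchoring fibrils, was at -0.14. The membrane-spanning chains *Col13a1*, *Col17a1*, *Col23a1* and *Col25a1* were at -0.01, -0.07, 0.14 and 0.03, and *Col10a1*, *Col26a1* and *Col28a1* at 0.12, -0.01 and 0.01.

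**Figure D3:**
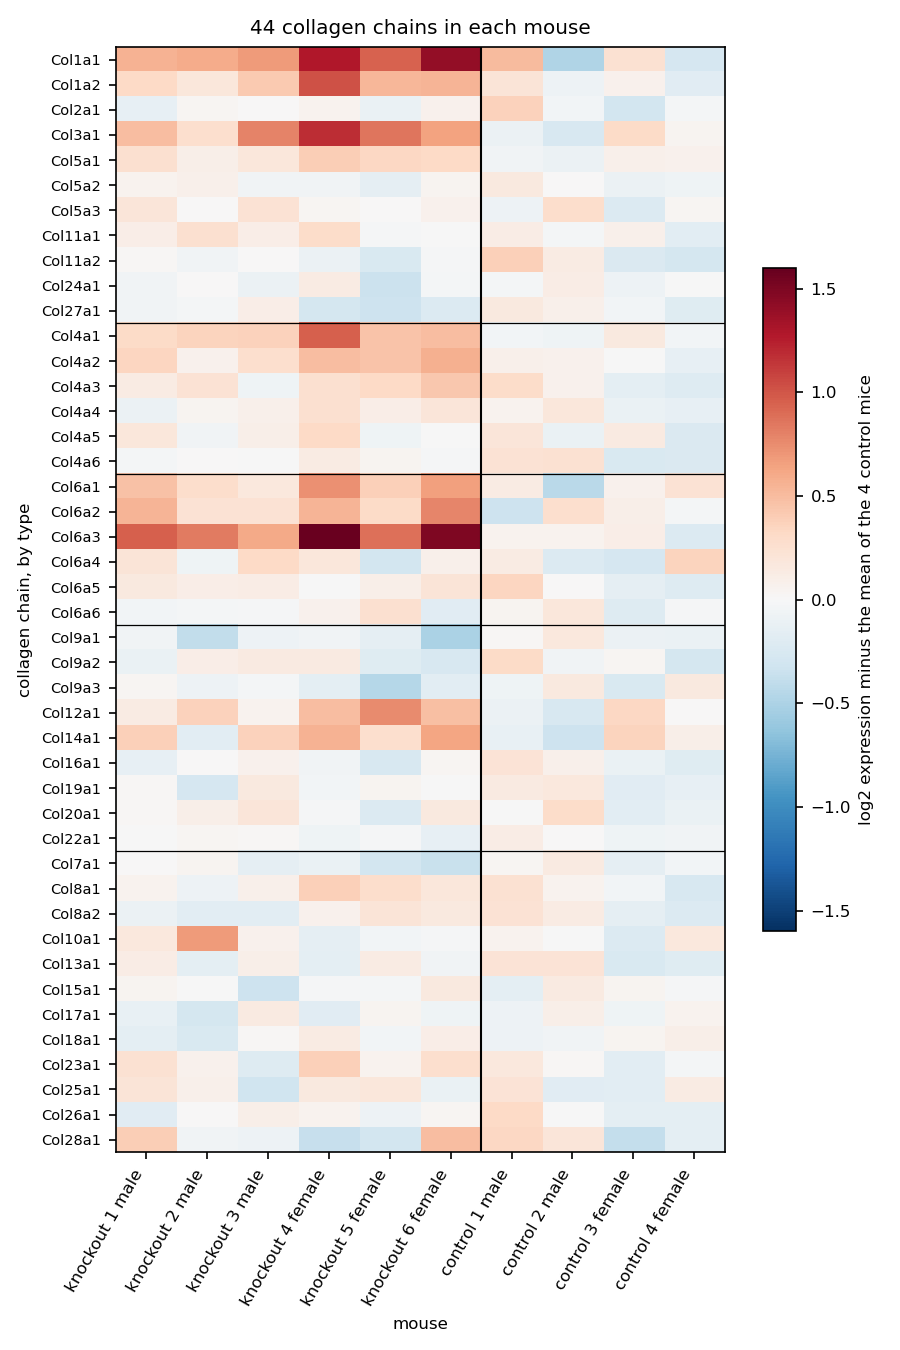
Log2 expression of the 44 collagen chains in each mouse minus the mean of the 4 control mice, with knockout mice left of the vertical line and control mice right of it; rows are grouped by collagen type. The deepest red lies in the knockout columns of *Col6a3*, *Col1a1* and *Col3a1*.

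Promoters are shown for *Col3a1* and *Col6a3*, which rose, and for *Col1a2* and *Col5a1*, fibrillar partners that did not pass, to set their sequences side by side. RefSeq promoter sequences (GRCm38.p6) were at hand for 35 of the 44 chains. The printed window runs 5′ to 3′ on the gene's own strand from 250 to 51 bases before the transcript start that this promoter table uses. For *Col3a1* and *Col1a2* this is the outermost start of the RefSeq gene, while for *Col5a1* and *Col6a3* it lies 44 and 30 bases inside it, so their windows end 7 and 21 bases before the outermost start. Capitals mark TATAAA, the letters of a TATA box, and the element CCAAT that the factor NF-Y can bind. They also mark the element GGGCGG that factors of the Sp family can bind and the element CAGACA that SMAD proteins can bind. Each was searched on both strands, and no match overlapped another motif. Bases nearer than 51 to the start used were not searched, so a TATA box close to that start would be missed.
Col3a1, chr1:45311288-45311487, plus strand: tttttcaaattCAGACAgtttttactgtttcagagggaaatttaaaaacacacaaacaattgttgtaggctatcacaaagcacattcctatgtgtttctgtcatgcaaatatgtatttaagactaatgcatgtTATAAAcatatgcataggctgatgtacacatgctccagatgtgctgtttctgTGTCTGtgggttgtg
Col6a3, chr1:90844022-90844221, minus strand: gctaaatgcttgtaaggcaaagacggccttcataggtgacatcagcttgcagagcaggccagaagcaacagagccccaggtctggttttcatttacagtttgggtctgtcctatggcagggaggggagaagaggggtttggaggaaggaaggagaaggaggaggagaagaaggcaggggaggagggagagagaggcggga
Col1a2, chr6:4505368-4505567, plus strand: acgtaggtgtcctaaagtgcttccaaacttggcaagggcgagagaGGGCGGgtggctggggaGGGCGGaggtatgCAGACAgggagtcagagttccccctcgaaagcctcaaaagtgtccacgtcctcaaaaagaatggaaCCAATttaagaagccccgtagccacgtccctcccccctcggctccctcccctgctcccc
Col5a1, chr2:27886175-27886374, plus strand: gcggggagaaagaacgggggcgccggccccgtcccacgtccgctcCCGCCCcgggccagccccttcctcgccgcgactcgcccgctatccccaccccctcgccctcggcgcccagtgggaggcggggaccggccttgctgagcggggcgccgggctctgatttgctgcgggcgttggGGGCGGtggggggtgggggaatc

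The share of G and C in these windows was 35.0% for *Col3a1*, 55.0% for *Col6a3*, 59.5% for *Col1a2* and 78.0% for *Col5a1*. *Col3a1* held CAGACA at 239 and, on the opposite strand, at 65 bases before the start used, and TATAAA at 117. *Col1a2* held GGGCGG at 205 and 188, CAGACA at 175 and CCAAT at 109, *Col5a1* held GGGCGG at 205 (opposite strand) and 73, and the *Col6a3* window held none of the 4 motifs. Of the 35 chains, 8 held CAGACA, 17 GGGCGG, 10 CCAAT and 4 TATAAA in any of their promoter windows. Over all 32851 promoter windows of the same length the shares were 14.3%, 24.6%, 28.4% and 9.14%, counted per window and not per gene. A match of this kind describes the letters in the window only, and none of these chains was tested for binding.

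Chains that share a trimer, and *Col3a1* with *Col1a1*, which share fibrils but no trimer, were set against each other within each mouse, as the log2 difference of the 2 probe sets, and the change of that difference between genotypes was tested by an exact permutation test within sex (100 arrangements, two-sided, smallest p 0.01). Such a difference says whether 2 chains moved by unequal amounts, and nothing of the ratio of the chains themselves. Of 11 pairs, 0 passed after Benjamini-Hochberg adjustment. A single pair at the smallest p would adjust to 0.11, and at least 3 pairs would have to reach it together to pass, so the design could hardly give a call.

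*Col1a1* minus *Col1a2* averaged 0.38 ± 0.24 in knockout and -0.03 ± 0.31 in control liver (SD, n = 6 and 4), a gap of 0.41 (exact permutation p = 0.04, adjusted p = 0.147). *Col6a3* minus *Col6a1* averaged -1.10 ± 0.18 in knockout and -1.71 ± 0.39 in control liver, a gap of 0.61 (exact permutation p = 0.03, adjusted p = 0.147). *Col5a1* minus *Col5a2* averaged 0.77 ± 0.17 in knockout and 0.50 ± 0.19 in control liver, a gap of 0.27 (exact permutation p = 0.02, adjusted p = 0.147). This gap rests on the kept *Col5a1* probe set, and the second one differed by -0.21 (knockout minus control), in the opposite direction. In all 3 pairs the knockout and control ranges overlapped.

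*Col4a1* minus *Col4a2* differed by 0.12 (exact permutation p = 0.37) and *Col3a1* minus *Col1a1* by -0.20 (exact permutation p = 0.42). For the neighbours *Col6a1* and *Col6a2* the gap was 0.01 (exact permutation p = 0.96). Its values ran from 1.06 to 1.38 in knockout and from 0.50 to 1.66 in control liver, so the controls spread far more widely than the knockouts. The remaining 5 pairs, of type IV, VIII, IX and XI chains, had raw p-values between 0.09 and 0.68.

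**Figure D4:**
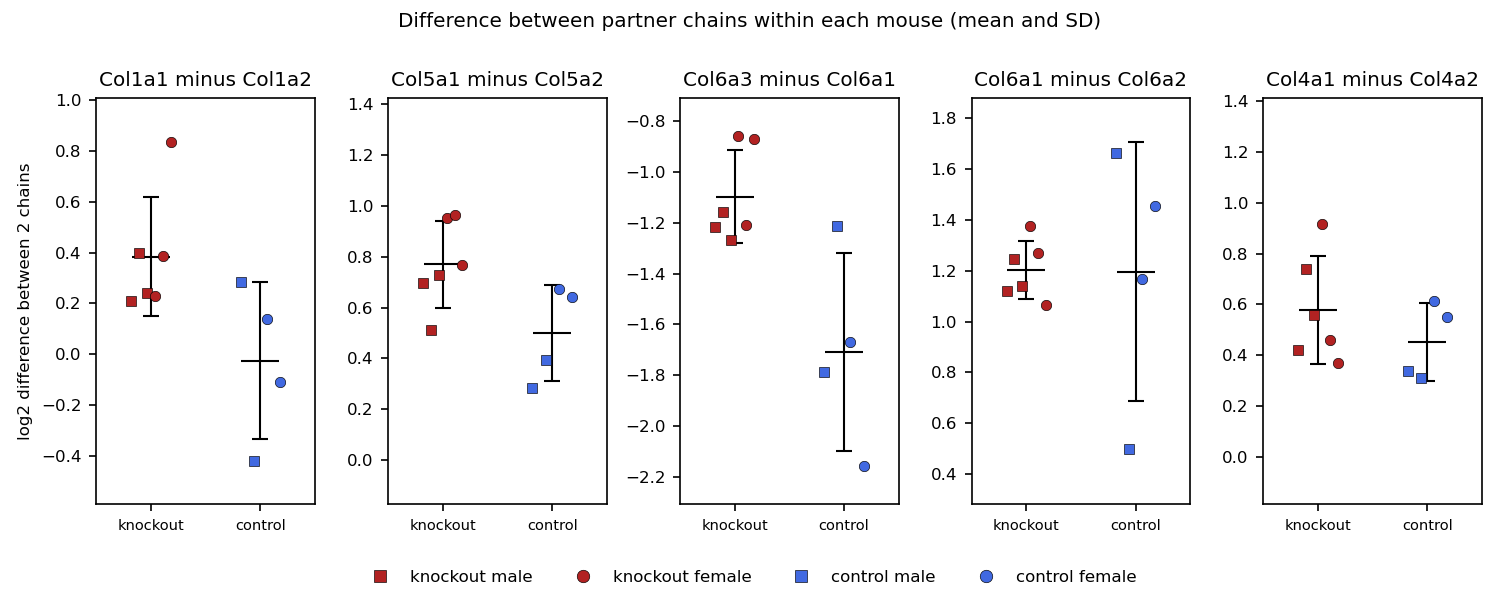
Log2 difference between 5 pairs of partner chains within each mouse, knockout left of control, males as squares and females as circles, with mean and SD (n = 6 and 4). Each panel spans 1.6 log2 units. The means of *Col1a1* minus *Col1a2*, *Col5a1* minus *Col5a2* and *Col6a3* minus *Col6a1* are higher in knockout liver, and the ranges overlap in all 5 panels.

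With the genotypes compared within each sex, the log2 fold change was higher in females than in males for 37 of the 44 chains (84.1%), against 51.1% of all genes. The comparison is of signed values, so it is not a count of chains that changed more in females. *Col11a2*, at -0.27 in males and 0.14 in females, and *Col8a2*, at -0.33 and 0.32, are among the 37. The chain median was -0.06 in males and 0.16 in females. In females 2 chains passed, *Col6a3* (log2 fold change 1.37, adjusted p = 0.018) and *Col4a2* (0.58, adjusted p = 0.047), against 0.906% of all genes, and in males 0 passed, against 0.347%. The difference between the sexes itself passed for 0 chains, against 0.00451% of genes. At an unadjusted p below 0.05 it stood out for 8 chains (18.2%), against 6.14% of genes. They were *Col4a2*, *Col4a3*, *Col4a4*, *Col4a6*, *Col6a3*, *Col8a1*, *Col8a2* and *Col11a2*, and all 8 had the larger value in females.

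For *Col6a3* the male effect was 0.74 and the female effect 1.37, a difference of -0.63 (male minus female, 95% interval -1.26 to -0.01, adjusted p = 0.806). *Col1a1* had effects of 0.60 in males and 1.22 in females, and *Col1a2* of 0.25 and 0.76. *Col3a1* had nearly equal ones, at 0.70 in males and 0.72 in females, with a difference whose interval ran from -0.61 to 0.56. With 2 control mice of each sex, intervals of this width are all the design allows.

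The sexes were also compared in control liver, with 2 mice each, and no chain passed. Control females lay below control males for 34 of 44 chains (77.3%), against 50.5% of genes. The 0 chains past the test stand beside 0.176% of genes, and 11 had an unadjusted p below 0.05, against 10.9% of genes. In the 7 chains at or under the background level, the median log2 expression per mouse was 4.33 to 4.52 in knockouts, and in controls 4.67 and 4.48 in the males and 4.23 and 4.21 in the females. How far this moves the female effects was not tested.

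**Figure D5:**
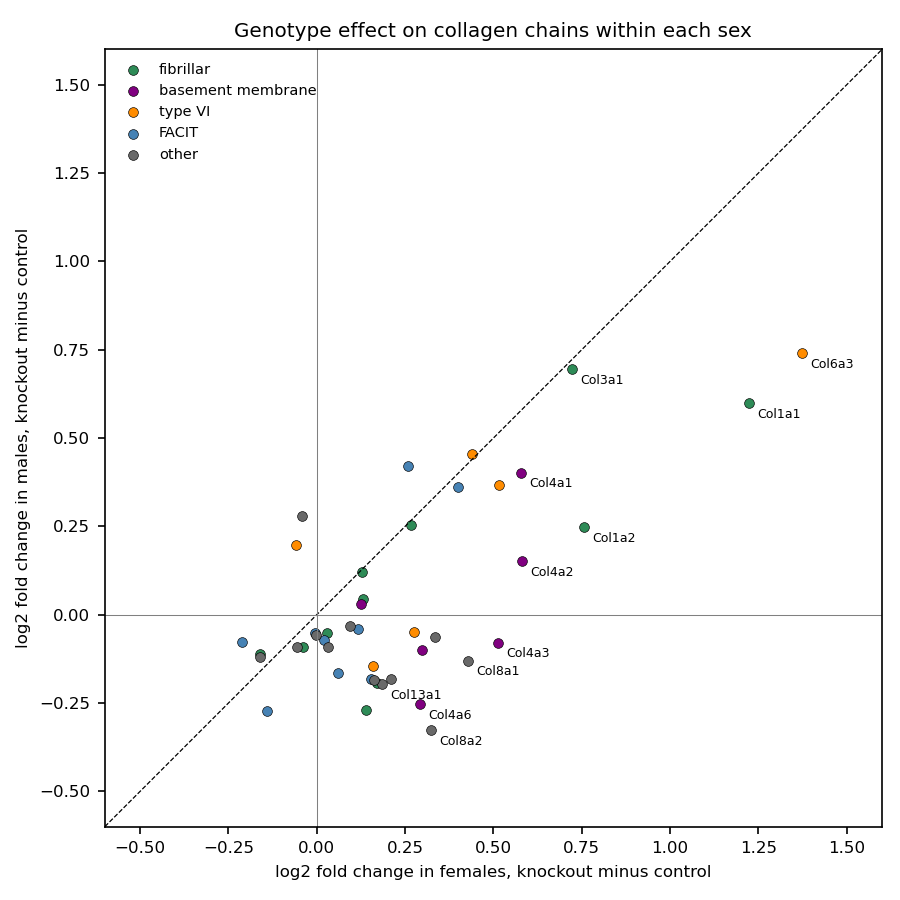
Log2 fold change (knockout minus control) of each collagen chain in females (horizontal axis) and males (vertical axis), coloured by collagen type; the dashed line marks equal effects. 37 of 44 points lie below the line, *Col3a1* lies close to it, and *Col6a3*, *Col1a1* and *Col1a2* lie to its right.

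Genes that modify, cut, coat or bind collagen were counted from 4 lists. Of 41 measured, 4 rose and 0 fell in knockout liver, with a median log2 fold change of 0.09, against 3.11% and 1.14% of all genes and a median of -0.01. In the list of hydroxylation, glycosylation and folding genes, 0 of 17 passed. The nearest were *Plod2*, a lysyl hydroxylase of collagen telopeptides, at 0.44 (adjusted p = 0.0969) and *Serpinh1*, the collagen chaperone HSP47, at 0.39 (adjusted p = 0.1). *Plod3* was not analysed here, since it was not among the genes with a single symbol.

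Among procollagen cleavage genes 1 of 7 rose, *Pcolce2*, which enhances removal of the C-propeptide. It ran from 7.69 to 8.11 in knockout liver (median 7.73), against 7.51, 7.25, 7.45 and 7.40 in control liver, with no overlap, and the log2 fold change was 0.43 (adjusted p = 0.0461). The call held only without control mouse 1 or knockout mouse 6 and was lost without any of the other 8 mice (adjusted p of up to 0.167). The related *Pcolce* was at 0.36 (adjusted p = 0.119).

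Of 8 fibril-binding proteoglycans 2 rose. *Bgn*, biglycan, ran from 12.18 to 12.72 in knockout liver (median 12.47), against 11.91, 11.66, 12.09 and 12.01 in control liver, with every knockout above every control (log2 fold change 0.53, adjusted p = 0.0077). *Prelp*, which links basement membranes to fibrils, was higher by 0.35 (adjusted p = 0.0458), a call that held only without knockout mouse 5 and was lost without any of the other 9 mice (adjusted p of up to 0.165), and *Dcn*, decorin, was at 0.07.

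Of 9 collagen receptors 1 rose. *Ddr1*, a receptor tyrosine kinase of epithelial cells that collagen activates, ran from 7.21 to 7.88 in knockout liver (median 7.68), against 6.94, 6.32, 6.47 and 6.19 in control liver. The groups did not overlap, and the log2 fold change was 1.17 (adjusted p = 0.0043). *Itga2*, a collagen-binding integrin subunit, was at 0.69 (adjusted p = 0.0502), and *Ddr2*, the receptor of mesenchymal cells, at 0.26 (adjusted p = 0.315).

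Markers of liver cell types were counted in the same way, and their part in the chain differences was not tested. The counts of each marker list stand beside 3.11% of all genes called higher and 1.14% called lower. For hepatic stellate cells 1 of 10 markers rose, *Pdgfrb* (log2 fold change 0.71, adjusted p = 0.0357), while *Acta2*, the marker of activated myofibroblasts, was at 0.16 (adjusted p = 0.598). The *Pdgfrb* call held only without knockout mouse 2 or 5 and otherwise reached an adjusted p of up to 0.131. The summed linear level of the 10 ran from 2527 to 3290 in knockout and from 2085 to 2671 in control liver. For portal fibroblasts 1 of 7 rose, *Cd34* (1.01, adjusted p = 0.0088), with sums of 434 to 631 in knockout and 342 to 441 in control liver, and *Gli1* was at or under the background level.

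Of 6 bile duct markers 5 rose, *Krt19*, *Epcam*, *Sox9*, *Cldn4* and *Cd24a*, and the summed level was 1249 to 1997 in knockout against 560 to 873 in control liver. The sums did not overlap, and for 5 of the 6 genes every knockout lay above every control, against 3.39% of all genes. The calls of *Epcam*, *Sox9* and *Cd24a* held without any one mouse. That of *Krt19* was lost without control mouse 2 or 4 (adjusted p of up to 0.0596), and that of *Cldn4* without control mouse 2, 3 or 4 or knockout mouse 2 or 5 (up to 0.1). Of 8 macrophage markers 4 rose, *C1qa*, *C1qb*, *Cd5l* and *Cd68*, with sums of 7193 to 11555 in knockout and 4401 to 6904 in control liver. *C1qa* lost its call without control mouse 2 or 4 (adjusted p of up to 0.0767), and the other 3 each lost it without any of 7 mice, control mice 2 and 4 among them (up to 0.179). Of 8 endothelial markers 1 rose, *Cdh5* (0.34, adjusted p = 0.0373, held only without control mouse 1 or knockout mouse 6 and up to 0.14 otherwise), with sums of 5962 to 7074 in knockout and 4994 to 6867 in control liver. None of 7 lymphocyte markers passed, and their sums of 354 to 412 in knockout lay within the 298 to 434 of control liver. None of 8 hepatocyte markers passed, and all 8 read well above the background level in every mouse. Their summed level was 71686 to 75451 in knockout and 75383 to 79223 in control liver, ranges that barely overlapped. Of the 8, 6 had a negative log2 fold change, as did 11519 of all 22180 genes. *Tat*, tyrosine aminotransferase, lay lower in every knockout than in every control, as did 1.93% of all genes (log2 fold change -0.25, adjusted p = 0.127).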

How the data were processed

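Total RNA of 10 livers was labelled as biotinylated cRNA and hybridised to Affymetrix Mouse Gene 2.0 arrays. The authors deposited log2 expression values per probe set, made with RMA in the oligo package per the labels. RMA normalises between arrays, so shifts common to all genes are removed, and low values are compressed. No genome build was given in the sources used here, and precision is limited by the number of arrays.

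Probe sets were named from the platform annotation: of 41345, 23521 had 1 symbol, 1820 several and 16004 none listed. Probe sets with several symbols were left out, 1 collagen probe set among them. Genotype and sex were fitted over 22180 genes with limma 3.58.1 (lmFit, eBayes) in R 4.3.3, with Benjamini-Hochberg adjustment and a threshold of 0.05. Effects within sex came from a fit of 4 groups. The code was tested on simulated data. The members and lists were chosen with earlier results of these data known. Every chain is named. Of the pathway lists, genes past the threshold are named, or else the 2 with the smallest p, and some neighbours were added after their values were seen. Each marker list is given by its range and its genes past the threshold. The mice are separate animals by their labels. All chains matched the RefSeq table (44 of 44). Alternatives were the sex term, probe set rule, low-level filter, scaling, moderation, array weights, replicate block and leaving out each mouse.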

Additional observations from a re-analysis of the deposited data

Results flagged for a closer look

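In 126 groups of mice tested, 6 held a mouse far from the others by Dixon's ratio, about as many as chance gives at 1 in 20 groups. *Col4a1* stood high at 7.64 in knockout mouse 4 (other knockouts 6.99 to 7.17) and at 6.84 in control mouse 3 (other controls 6.61 to 6.65). *Serpinh1* stood high at 8.26 in knockout mouse 4 (others 7.79 to 7.95). *Col6a3* stood low at 5.31 in control mouse 4 (others 5.59 to 5.63), *Col15a1* stood low at 5.33 in knockout mouse 3 (others 5.64 to 5.83), and *Epcam* stood high at 6.24 in control mouse 3 (others 6.02 to 6.04).

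For 3 chains every knockout male lay below both control males and every knockout female above both control females. The share of all genes with this pattern was not counted, and *Col8a2* had a mean at or under the background level. Female minus male differences in control liver were -0.479 for *Col4a6*, -0.359 for *Col8a2* and -0.432 for *Col13a1*. In knockout liver they were 0.067, 0.291 and -0.050. The male minus female effect was -0.545 for *Col4a6* (males -0.254, females 0.292), -0.65 for *Col8a2* (males -0.327, females 0.323) and -0.382 for *Col13a1* (males -0.197, females 0.185). The test of the difference gave adjusted p-values of 0.748, 0.707 and 0.81, none past the threshold.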

How the results depend on the processing

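The count of 4 chains higher in knockout liver was 0 with the replicate block, 9 with genes at or under the background level left out and 9 with array weights. It was 1 to 7 when each mouse was left out in turn, with 7 without control mouse 1, 1 without control mouse 2 or 4 and 2 without control mouse 3. The count of 4 pathway genes was 1 with the replicate block, 2 with arrays centred on their median, 7 with array weights and 2 to 5 with a mouse left out. The replicate block uses the numbers 1 to 4 that both groups carry and drops knockout mice 5 and 6. Each control mouse had its highest correlation with a differently numbered knockout. The numbers run on across the sexes, so number 3 is a female among the controls and a male among the knockouts. Between equally numbered mice, deviations from the group means correlated at 0.17, 0.292, -0.223 and 0.162. Deviations from the means of group and sex correlated at 0.141, -0.0838, -0.12 and -0.0412. With only 4 such pairs, these values cannot decide whether equally numbered mice belong together. With the block the adjusted p was 0.0617 for *Col6a3*, 0.0807 for *Col3a1*, 0.146 for *Col4a1* and 0.201 for *Col1a1*. *Col6a3* was called without any one mouse (adjusted p 0.0053 to 0.0296). No chain was lower in any of the alternatives, no called chain changed sign, and 0 chains passed the tests between sexes in each alternative run for them. Over all genes, 690 higher and 252 lower became 208 and 49 with the block and 1031 and 499 with array weights. With genes at or under the background level left out they were 826 and 351 of 14247. Centring arrays on their median gave 587 and 312. Over all genes the counts were 825 and 449 without control mouse 1 and 233 and 47 without control mouse 2. Without control mouse 3 they were 448 and 114, and without control mouse 4 they were 244 and 77. Why the counts moved was not tested.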
